A study of Mus musculus with 4 samples.

Results

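Described here are the 2 corticosteroid receptors, the enzyme Hsd11b1 that makes active hormone inside the cell, and 5 genes known to be induced by glucocorticoids, in Mmp3-positive and in Mmp3-negative cells from mouse fat. The 8 genes were chosen by name, Nr3c1, Nr3c2, Hsd11b1, Fkbp5, Tsc22d3, Zbtb16, Sgk1 and Errfi1, out of 35580 genes in the files, and the estimated counts and TPM values of all their transcripts were added up. All 8 had enough counts to be tested. The cells came from the stromal vascular fraction of subcutaneous adipose tissue, the cells other than adipocytes that are released when fat is digested, of wild-type C57BL/6 mice. There were 2 Mmp3-positive and 2 Mmp3-negative libraries, and they shared tissue, strain and genotype. The age, sex and treatment of the mice are not given in the sources used here, and for the method of cell separation the labels have a reagent code alone. Nothing in the labels said that the libraries came from separate animals, so a p-value here reflects the variation among these 4 samples alone, and that variation may be technical.

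Glucocorticoids cross the cell membrane and bind the glucocorticoid receptor, which is held in the cytoplasm by a complex of Hsp90 and its co-chaperones. The bound receptor moves to the nucleus, binds a short palindrome in DNA called the glucocorticoid response element, and turns target genes on or, often through other factors, off. In adipose tissue these hormones are known to promote the differentiation of progenitors into adipocytes and to act on lipid storage and inflammation, and Hsd11b1 is known for raising the active hormone inside fat cells and stromal cells. Corticosterone, the main glucocorticoid of the mouse, also binds the mineralocorticoid receptor.

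Of the 8 genes, 0 passed the threshold of an adjusted p under 0.05 (edgeR quasi-likelihood test, Benjamini-Hochberg over 14185 genes), in a comparison that called 0.00705% of genes higher and 0.0141% lower in Mmp3-positive cells. Both receptors and Hsd11b1 were detected in every library, and Errfi1 was the most abundant of the genes in all 4. Zbtb16 was lower in both Mmp3-positive libraries than in either Mmp3-negative library, 3.08-fold by the fitted value, but its edgeR adjusted p was 0.480. For 6 of the 8 genes the lowest level was in Mmp3-negative replicate 1, the library that was lowest for 28.3% of all genes tested. The counts of Sgk1 were partly assigned to other transcripts in the 2 groups: Sgk1-202 and Sgk1-206 held between 246 and 480 estimated counts in each Mmp3-positive library and 0 in both Mmp3-negative libraries. Over all genes, 8.38% of transcripts with at least 100 counts in both Mmp3-positive libraries had under 1 in both Mmp3-negative libraries. Of transcripts with at least 100 counts in a Mmp3-negative library, 45.8% had under 1 in the other.

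Sgk1-202 starts at the only promoter, of 14 searched, in which the receptor's palindrome was found, so that promoter is printed here beside the promoter of Sgk1-201, the transcript found in all 4 libraries. Both are from RefSeq (GRCm38.p6, plus strand, chromosome 10, 250 bases before to 50 after the start), and start sites at 21993890 and 21994666 are the annotated starts of these transcripts. The motifs searched on both strands were the palindrome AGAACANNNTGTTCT and its single arms, AGAACA or TGTTCT, which overlap because each palindrome holds 2 arms. Matches are in capitals. The promoter of Sgk1-202 spans chr10:21993640-21993939 and that of Sgk1-201 spans chr10:21994416-21994715.
Sgk1-202 promoter: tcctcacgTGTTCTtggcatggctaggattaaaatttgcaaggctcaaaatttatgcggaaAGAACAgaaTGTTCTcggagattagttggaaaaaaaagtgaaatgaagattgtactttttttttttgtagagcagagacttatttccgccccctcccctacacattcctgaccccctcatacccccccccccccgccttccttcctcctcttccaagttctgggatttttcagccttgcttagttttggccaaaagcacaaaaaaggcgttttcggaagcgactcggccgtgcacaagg
Sgk1-201 promoter: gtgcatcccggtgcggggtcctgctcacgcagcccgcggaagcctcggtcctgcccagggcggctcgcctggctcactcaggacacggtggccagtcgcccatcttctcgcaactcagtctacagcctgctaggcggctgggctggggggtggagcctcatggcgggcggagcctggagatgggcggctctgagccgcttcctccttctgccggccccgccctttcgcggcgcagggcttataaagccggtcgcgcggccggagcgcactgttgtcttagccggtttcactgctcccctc

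The Sgk1-202 promoter held 1 palindrome, whose first base lay 189 bases before the start, and a further arm 242 bases before the start. The Sgk1-201 promoter held neither. The start of Sgk1-201 lies downstream of that of Sgk1-202 on the same strand. The same palindrome is therefore also upstream of Sgk1-201, but outside the 250 bases searched before its start. Across the table, 3 of 32851 promoters of this length held the palindrome (0.00913%) and 6233 held an arm (19.0%). RefSeq promoters were matched for 6 of the 8 genes, 14 promoters in all (not for Nr3c1 and Zbtb16). Of these 14, 1 held the palindrome and 4 held an arm, namely 3 of the 6 Sgk1 promoters and 1 of the 3 Tsc22d3 promoters. A match describes the letters only and is not a measured binding site.

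Mmp3, a secreted protease of the extracellular matrix that gives the groups their name, had 4161 and 3409 CPM (TMM-normalised read counts, scaled to library size) in Mmp3-positive cells against 106.2 and 130.5 CPM in Mmp3-negative cells, and it was the only gene of 14185 called higher (32.0-fold, edgeR adjusted p = 0.00793). Library totals were 17693755 to 20286221 estimated counts. Stromal fibroblast markers dominated both groups, with 29390 and 37190 summed CPM in Mmp3-positive cells and 21420 and 30520 in Mmp3-negative cells over 14 genes. Markers of other cell types were lower in sum in Mmp3-positive cells, at 111.5 and 109.9 CPM against 866.1 and 829.2 CPM for 13 pericyte and smooth muscle genes, 113 and 110.3 against 314.1 and 212.3 CPM for 12 endothelial genes, and 48.36 and 38.49 against 461.8 and 238.6 CPM for 18 macrophage and leukocyte genes. Markers at 0 in both Mmp3-positive libraries included Adgre1, H2-Eb1, Laptm5, Cd3e, Lmod1 and Cldn5, and those at 0 in both Mmp3-negative libraries included Mrc1, of the macrophage list, and Emcn, of the endothelial list. Of 11 adipocyte genes, Lep and Cidec were at 0 in all 4 libraries and Adipoq in both Mmp3-negative libraries, and the sum was 67.68 and 67.66 CPM in Mmp3-positive cells against 132.4 and 116.7 CPM in Mmp3-negative cells. Much of that gap was Pnpla2, at 16.21 and 8.91 against 65.28 and 54.49 CPM. Of the 7 adipocyte genes tested, 6 had a fitted level lower in Mmp3-positive cells, and the other, Pparg, had a higher one. Pparg had 11.26 and 18.99 against 5.071 and 9.745 CPM. Among the 6, Lipe was nearly level, at 18.16 and 20.87 against 18.13 and 21.39 CPM. Slc2a4 had 0 and 0 counts in Mmp3-positive cells against 134 and 144 in Mmp3-negative cells. Whether these cells contribute to the differences described below was not tested, and in such bulk samples fewer cells of a type and less RNA per cell cannot be told apart.

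**Figure D1:**
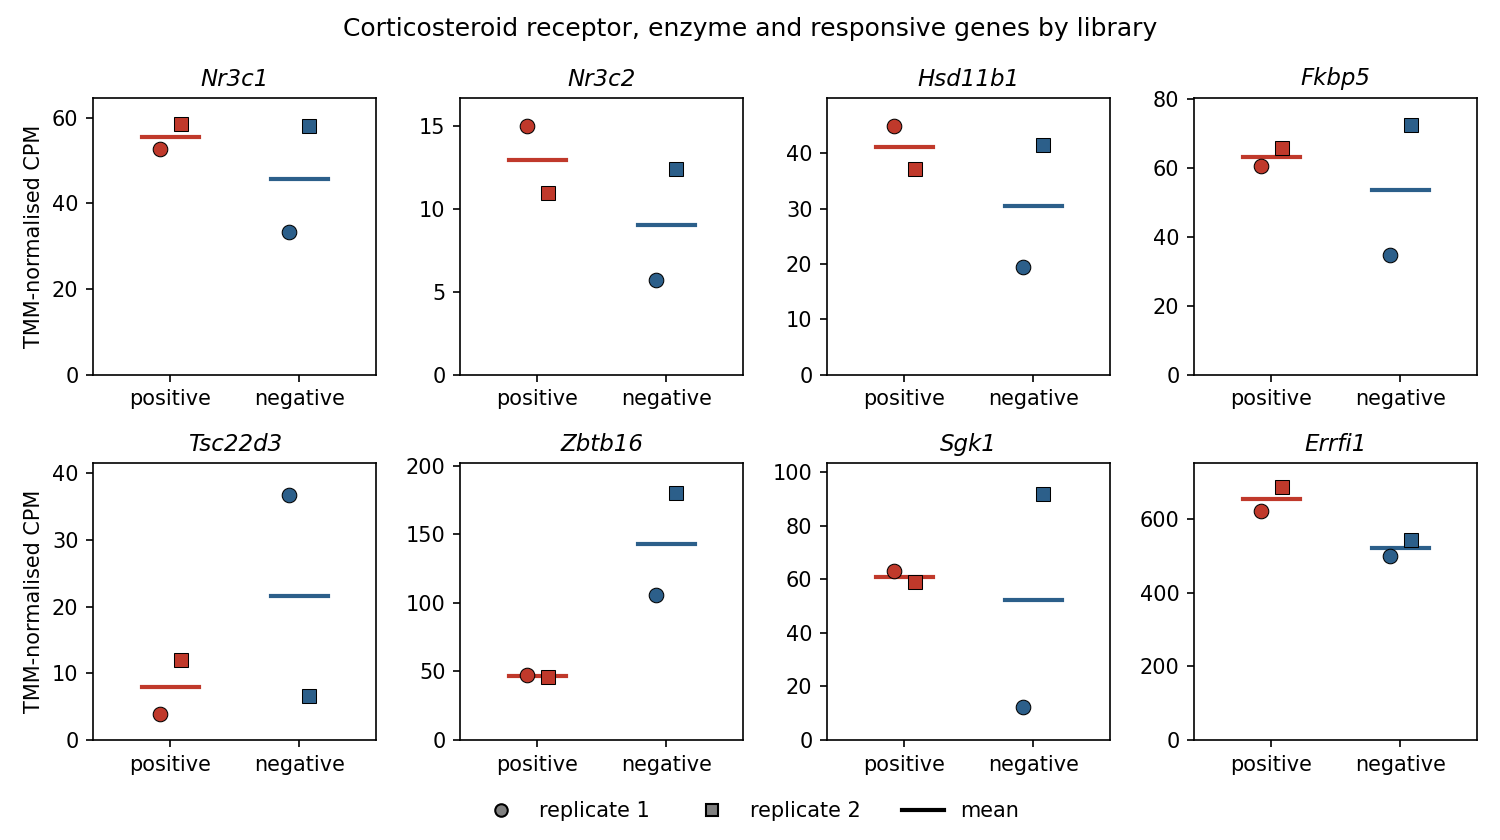
Level of each of the 8 genes in each library, in TMM-normalised CPM, with Mmp3-positive libraries left of Mmp3-negative libraries; points are libraries and horizontal lines are group means. The 2 Mmp3-negative points of Sgk1 lie 7.36-fold apart and those of Tsc22d3 5.65-fold apart, while Zbtb16 and Errfi1 are the genes whose groups do not overlap.

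Nr3c1 encodes the glucocorticoid receptor (ENSMUSG00000024431, chromosome 18 of GRCm38, 39410545 to 39519421, minus strand). It had 52.63 and 58.6 CPM in Mmp3-positive cells and 33.39 and 58.01 CPM in Mmp3-negative cells. The groups differed little apart from the low Mmp3-negative replicate 1. The log2 fold change was 0.28 with a 95% interval of -0.67 to 1.23 (edgeR adjusted p = 0.998), an interval that holds changes in both directions. Without Mmp3-negative replicate 1 the log2 fold change was -0.07.

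Nr3c2 encodes the mineralocorticoid receptor (ENSMUSG00000031618, chromosome 8, 76899442 to 77245012, plus strand). It was the rarer receptor, with 15.0 and 10.95 CPM in Mmp3-positive cells and 5.718 and 12.4 CPM in Mmp3-negative cells. Again the lowest value was Mmp3-negative replicate 1, and the other Mmp3-negative library lay between the Mmp3-positive ones (log2 fold change 0.52, 95% interval -2.10 to 3.14, edgeR adjusted p = 0.999). Per length, Nr3c1 stood at 33.79 and 27.7 TPM (a transcript level scaled by length and library) in Mmp3-positive cells and 13.19 and 32.38 TPM in Mmp3-negative cells, against 3.403 and 4.173 TPM and 0.7797 and 2.969 TPM for Nr3c2. Nr3c1 was above Nr3c2 in all 4 libraries.

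Hsd11b1 encodes 11-beta-hydroxysteroid dehydrogenase type 1, which turns inactive 11-dehydrocorticosterone into corticosterone in the endoplasmic reticulum (ENSMUSG00000016194, chromosome 1, 193221634 to 193264075, minus strand). It had 45.0 and 37.22 CPM in Mmp3-positive cells and 19.53 and 41.52 CPM in Mmp3-negative cells. The second Mmp3-negative library lay between the Mmp3-positive ones, and the log2 fold change was 0.43 with a 95% interval of -0.82 to 1.68 (edgeR adjusted p = 0.997). Without Mmp3-negative replicate 1 it was -0.02.

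The partners of Hsd11b1 were measured in a list of 10 corticosteroid hormone enzymes, of which 5 were tested and 0 passed the threshold in either direction in edgeR. At an unadjusted p under 0.05 there was 1 higher, Hsd11b2, where 5.62% of all genes tested were higher. DESeq2 called 1 higher, where 5.46% of genes were called higher. H6pd supplies Hsd11b1 with its cofactor NADPH, and it had 532.5 and 462 CPM in Mmp3-positive cells against 447.9 and 369 CPM in Mmp3-negative cells. Its groups did not overlap, and 22.5% of all genes tested were higher in this way. The difference did not pass the test (log2 fold change 0.28 with a standard error of 0.18, edgeR adjusted p = 0.836). Hsd11b2 encodes the enzyme that inactivates corticosterone, and it had 45 and 37 counts in Mmp3-positive cells and 0 and 0 in Mmp3-negative cells. That is at least 12.7-fold higher against a floor of 3 counts per library, with an edgeR adjusted p of 0.480.

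Fkbp5 encodes the co-chaperone FKBP51, which lowers the hormone affinity of the receptor and is itself induced by it, a feedback loop (ENSMUSG00000024222, chromosome 17, 28399094 to 28517527, minus strand). It had 60.58 and 65.78 CPM in Mmp3-positive cells and 34.74 and 72.48 CPM in Mmp3-negative cells. The Mmp3-negative libraries held both the lowest and the highest value. The log2 fold change was 0.24 with a 95% interval of -0.80 to 1.28 (edgeR adjusted p = 0.999), and without Mmp3-negative replicate 1 it was -0.20.

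Tsc22d3 encodes GILZ, a leucine zipper protein that mediates anti-inflammatory actions of glucocorticoids (ENSMUSG00000031431, X chromosome, 140539528 to 140600659, minus strand). It had 3.895 and 11.96 CPM in Mmp3-positive cells and 36.79 and 6.516 CPM in Mmp3-negative cells. Mmp3-negative replicate 1 was high here, unlike for the genes above, and the groups overlapped (log2 fold change -1.45, 95% interval -4.36 to 1.47, edgeR adjusted p = 0.930). Without that library the log2 fold change was 0.28.

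Zbtb16 encodes PLZF, a zinc finger repressor of transcription that glucocorticoids induce in many cell types (ENSMUSG00000066687, chromosome 9, 48654297 to 48836222, minus strand). It had 47.0 and 45.67 CPM in Mmp3-positive cells and 105.7 and 180.0 CPM in Mmp3-negative cells. The Mmp3-positive libraries were nearly alike, 1.03-fold apart, and both lay below the lower Mmp3-negative library; 17.3% of all genes tested were lower in this way. The log2 fold change was -1.62 with a 95% interval of -2.43 to -0.82 and an unadjusted p of 0.00279, which is rank 60 of 14185 genes, and the edgeR adjusted p was 0.480. It passed in the DESeq2 Wald test (log2 fold change -1.67, adjusted p = 1.5e-05), which called 4.18% of genes lower, and without Mmp3-negative replicate 1 (edgeR -1.96, adjusted p = 0.00596), where 0.602% of genes were called lower; 0 of the 8 were called higher there, against 1.44% of genes. By TPM the groups overlapped, at 23.67 and 22.3 in Mmp3-positive cells against 21.52 and 101.0 in Mmp3-negative cells. With TPM rescaled after leaving out a group of pseudogenes that took 49.75% of the TPM in Mmp3-negative replicate 1, they did not overlap, at 27.8 and 29.0 in Mmp3-positive cells against 42.8 and 109.9 in Mmp3-negative cells.

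Sgk1 encodes a serine/threonine kinase induced by both corticosteroid receptors, known for keeping sodium channels at the membrane (ENSMUSG00000019970, chromosome 10, 21882184 to 21999903, plus strand). It had 63.0 and 58.96 CPM in Mmp3-positive cells and 12.46 and 91.68 CPM in Mmp3-negative cells. The Mmp3-positive libraries lay between the Mmp3-negative ones, which differed 7.36-fold. The log2 fold change was 0.23 with a 95% interval of -1.85 to 2.31 (edgeR adjusted p = 0.999). Without Mmp3-negative replicate 1 it was -0.59, and without Mmp3-negative replicate 2 it was 2.29 (edgeR adjusted p = 0.0262, where 1.45% of genes were called higher and 0.709% lower), so the direction rested on which Mmp3-negative library was used.

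Errfi1 encodes MIG6, a feedback inhibitor of the EGF receptor (ENSMUSG00000028967, chromosome 4, 150853919 to 150868892, plus strand). It had 621.7 and 687.4 CPM in Mmp3-positive cells and 501.0 and 544.2 CPM in Mmp3-negative cells. Both Mmp3-positive libraries were above both Mmp3-negative libraries, as for 22.5% of all genes tested. The log2 fold change was 0.32 with a 95% interval of -0.05 to 0.70, which did not pass the test (edgeR adjusted p = 0.644).

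**Figure D2:**
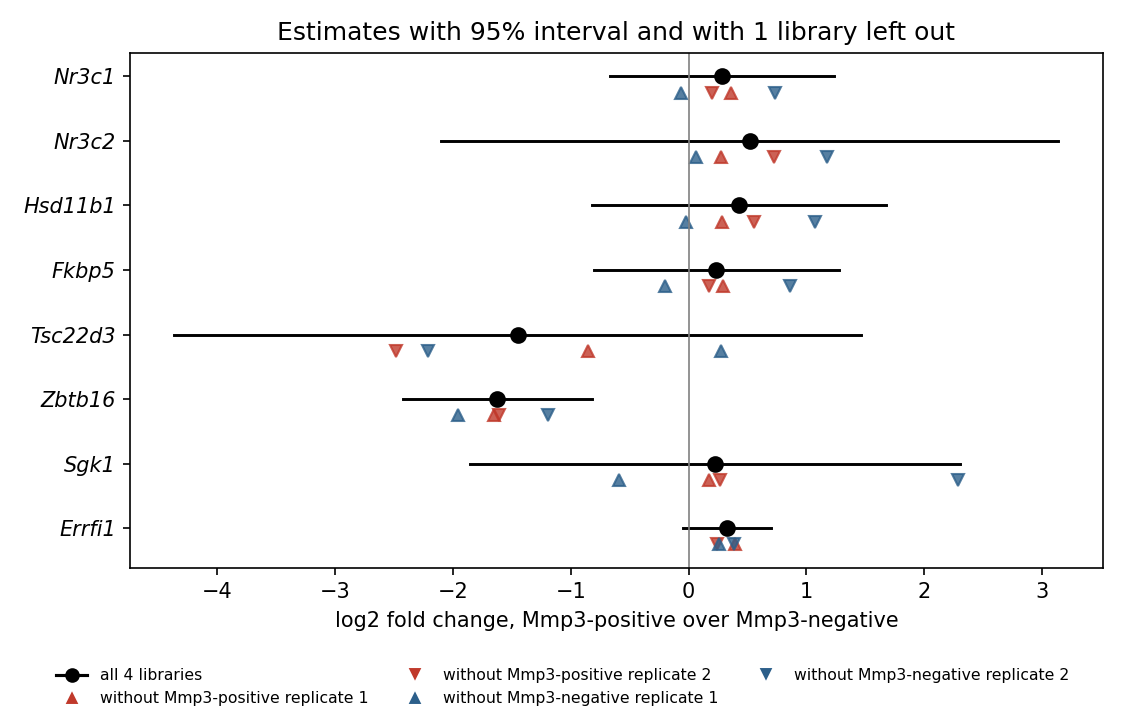
Log2 fold change of Mmp3-positive over Mmp3-negative cells for the 8 genes (x axis) with 95% intervals of the edgeR fit, and the value with each library left out. The interval of Zbtb16, -2.43 to -0.82, lies below 0 before adjustment over all genes, and the values of Sgk1 run from -0.59 to 2.29 with the library left out.

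Counted together, 1 of the 8 genes had an unadjusted p under 0.05, Zbtb16, where 8.87% of all genes did and 3.25% were lower and 5.62% higher. In the DESeq2 Wald test the count past the threshold was 1 lower, Zbtb16, and 0 higher, where 4.18% of genes were called lower and 5.46% higher. Fitted log2 fold changes were above 0 for 6 of the 8 and below 0 for 2, with a median of 0.26, against 51.1% above 0 and a median of 0.02 over all genes tested. The direction often rested on a single library: without Mmp3-negative replicate 1 the sign turned for 5 of the 8, Nr3c1, Hsd11b1, Fkbp5, Sgk1 and Tsc22d3.

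In order of mean TPM the genes were Errfi1, Fkbp5, Sgk1, Hsd11b1, Zbtb16, Nr3c1, Tsc22d3 and Nr3c2. Errfi1 stood apart, with 834.9 and 942.4 TPM in Mmp3-positive cells and 464.6 and 879.8 TPM in Mmp3-negative cells, and ranked first in all 4 libraries. Nr3c2 was last in 3 of the 4. Neighbours in the order from Fkbp5 to Nr3c1 did not differ beyond their spread, although Fkbp5 was above Nr3c1 in all 4 libraries: Sgk1 was in rank 2 in Mmp3-positive replicate 1 and rank 7 in Mmp3-negative replicate 1, and Zbtb16 was in rank 6 in both Mmp3-positive libraries but in ranks 3 and 2 in the Mmp3-negative ones. TPM values add up to a fixed total in each library, and a group of near-identical pseudogenes took 49.75% of that total in Mmp3-negative replicate 1, against 8.1% in the other Mmp3-negative library and 14.99% and 23.16% in the Mmp3-positive libraries.

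**Figure D3:**
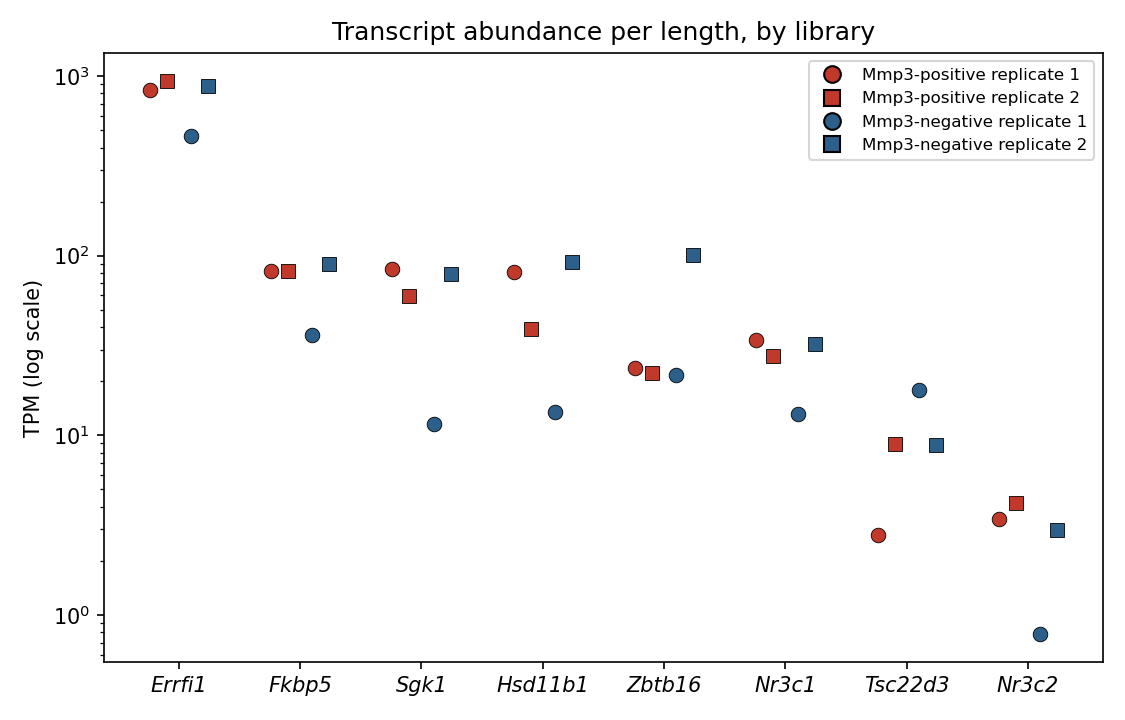
Level per transcript length of the 8 genes in each library, in TPM on a log axis, in order of the mean over the 4 libraries, with Mmp3-positive points left of Mmp3-negative points. Errfi1 is above every other gene in each library, and each of the genes Sgk1, Hsd11b1 and Zbtb16 has points within the range of its neighbours.

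The counts of a gene are shared out among its annotated transcripts by kallisto, and 37 of the 62 transcripts of the 8 genes received at least 1 count in some library. Of the 10 transcripts with at least 100 counts in both Mmp3-positive libraries, 2 had under 1 count in both Mmp3-negative libraries, Sgk1-202 and Sgk1-206. Over all genes this held for 1095 of 13060 transcripts (8.38%). Of the 11 with at least 100 counts in both Mmp3-negative libraries, 0 had under 1 count in both Mmp3-positive libraries, against 4.15% over all genes. Such swings were common between libraries of the same group too: of transcripts with at least 100 counts in a library of the pair, 28.0% had under 1 in the other Mmp3-positive library and 45.8% in the other Mmp3-negative library, and among the 8 genes 5 of 21 and 9 of 23 did.

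Sgk1-202, which begins at the promoter with the palindrome printed above, had 344 and 480 estimated counts in Mmp3-positive cells and 0 and 0 in Mmp3-negative cells. That was 28.7% (95% interval 26.2 to 31.4, exact binomial) and 41.5% (38.6 to 44.4) of the Sgk1 counts in the Mmp3-positive libraries. In the Mmp3-negative libraries, the upper bounds of the same exact interval for a count of 0 were 1.58% of 231 and 0.232% of 1590 Sgk1 counts, and 3 counts would be 1.3% and 0.189%. These intervals and limits cover counting error only, not kallisto's assignment of reads to transcripts.

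Sgk1-206, a shorter coding transcript that starts further 3′, had 286 and 246 counts in Mmp3-positive cells and 0 and 0 in Mmp3-negative cells. The searched promoter of Sgk1-201 held no arm, but the palindrome also lies further upstream of its start. Sgk1-201 had 477 and 317 counts in Mmp3-positive cells and 113 and 1387 in Mmp3-negative cells. It held 39.8% and 27.4% of the Sgk1 counts in Mmp3-positive cells and 48.9% and 87.2% in Mmp3-negative cells, so its share was higher in both Mmp3-negative libraries. Sgk1-208, annotated as a retained intron, had 0 and 0 counts in Mmp3-positive cells and 40 and 203 in Mmp3-negative cells.

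How far such assignments can be trusted depends on sequence that only the transcript has. Sgk1-202 held 291 of 2546 words of 31 bases found in no other Sgk1 transcript, and 0 of them were found in another gene. Sgk1-206 held 54 such words of 829 and Sgk1-201 only 22 of 2426. Reads were not analysed here, so whether reads fell on these words was not tested.

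**Figure D4:**
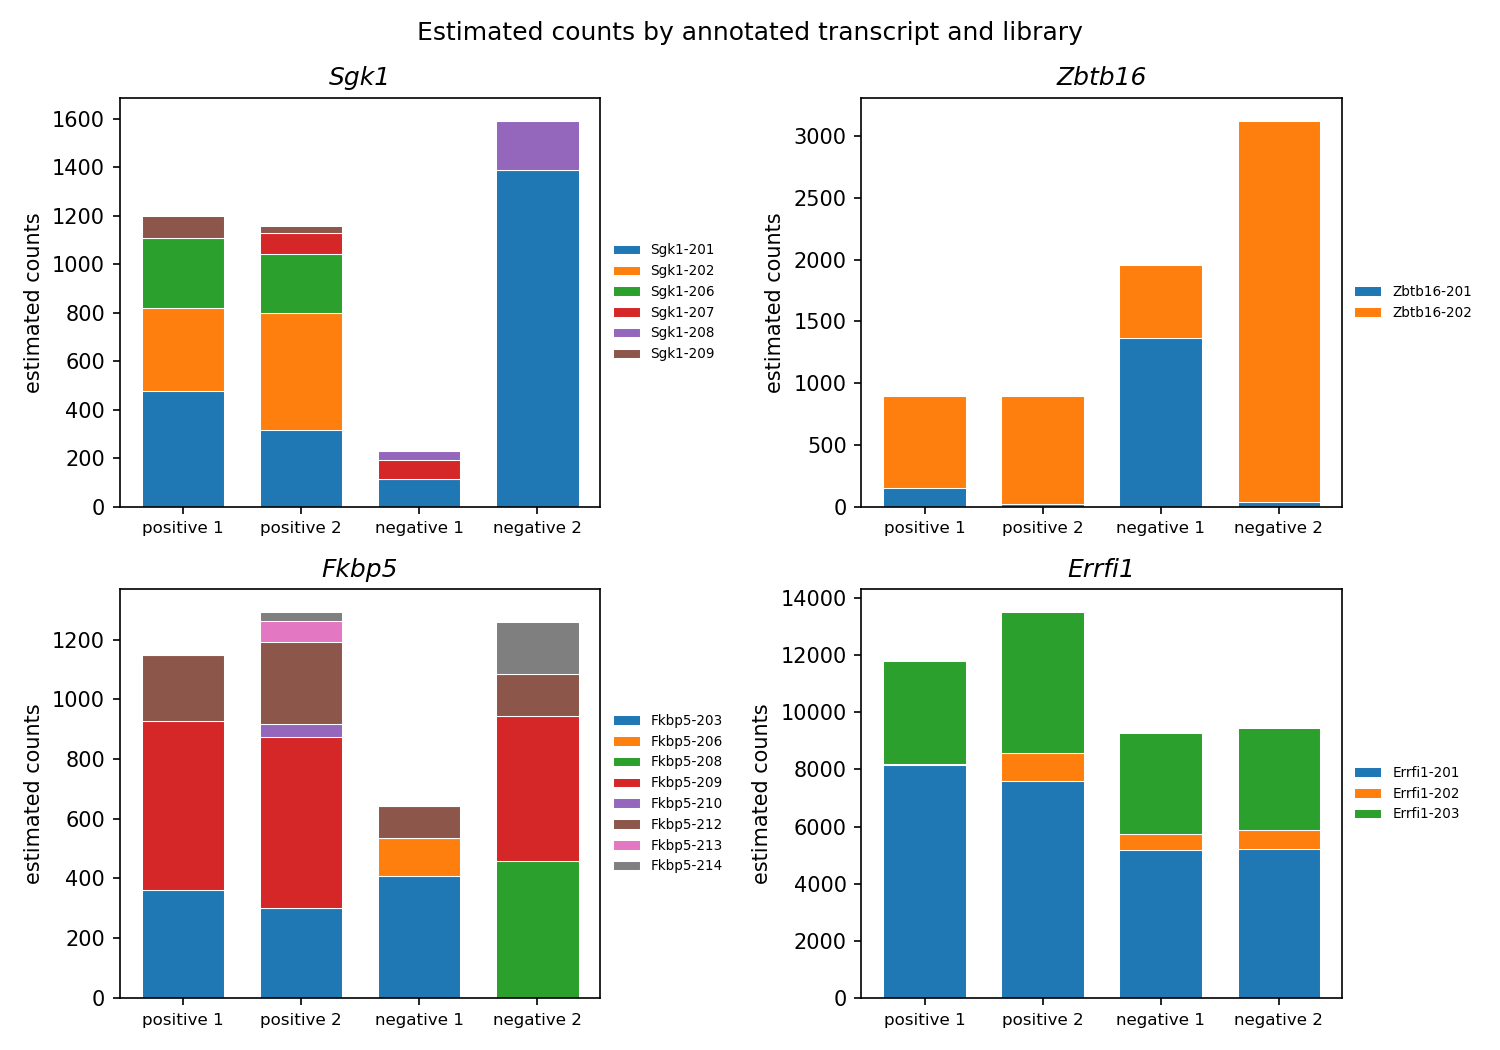
Estimated counts by transcript (stacked colours) in each library for Sgk1, Zbtb16, Fkbp5 and Errfi1 (y axis), with Mmp3-positive bars left of Mmp3-negative bars. In Sgk1 the Mmp3-positive bars hold Sgk1-202 and Sgk1-206, which are at 0 in the Mmp3-negative bars, and in Zbtb16 the transcript Zbtb16-201 makes up most of the bar in Mmp3-negative replicate 1 alone.

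Zbtb16-202 carried most counts in 3 libraries, with 741 and 879 in Mmp3-positive cells and 3084 in Mmp3-negative replicate 2, against 597 in Mmp3-negative replicate 1. In that last library Zbtb16-201, the longer coding transcript, had 1363 counts, against 153 and 18 in Mmp3-positive cells and 38 in Mmp3-negative replicate 2. The summed Zbtb16 counts were lower in both Mmp3-positive libraries, but Zbtb16-202 alone was not, since 597 lies below 741.

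Nr3c2 counts in Mmp3-positive replicate 1 were mostly on the coding transcript Nr3c2-204, with 243, which had 0 in the other 3 libraries. In Mmp3-positive replicate 2 nearly all were on Nr3c2-208, annotated as a target of nonsense-mediated decay, with 213, and both Mmp3-negative libraries had theirs on Nr3c2-203, with 106 and 215. The share of Nr3c2 counts on transcripts of the protein-coding class was therefore 100% and 1.03% in Mmp3-positive cells and 100% in both Mmp3-negative libraries. Nr3c2-203 shared all of its sequence words with other Nr3c2 transcripts, and Nr3c2-208 had 30 of its own.

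Hsd11b1 had all of its counts on coding transcripts in each library. Hsd11b1-202 led in Mmp3-positive replicate 1 with 727 counts and Hsd11b1-203 in Mmp3-positive replicate 2 with 483, while Mmp3-negative cells had 362 and 343 on Hsd11b1-203 and 0 and 264 on Hsd11b1-202. Hsd11b1-201 had 62 and 191 counts in Mmp3-positive cells and 0 and 0 in Mmp3-negative cells, a pattern below the limit of 100 in the first library.

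Nr3c1 counts also fell on different coding transcripts within a group: Nr3c1-203 had 449 and 0 in Mmp3-positive cells and 0 and 0 in Mmp3-negative cells, and Nr3c1-204 had 0 and 470 in Mmp3-positive cells and 234 and 254 in Mmp3-negative cells. Nr3c1-208 was found in all 4 libraries, with 250 and 681 counts in Mmp3-positive cells and 109 and 346 in Mmp3-negative cells. For Fkbp5, a coding transcript of 3486 bases had 567 and 572 counts in Mmp3-positive cells and 0 and 484 in Mmp3-negative cells. In Mmp3-negative replicate 1, where Tsc22d3 was high, 201 counts were on the processed transcript Tsc22d3-202 and 292 on the coding transcript Tsc22d3-203. Both transcripts had 0 counts in every other library. Tsc22d3-201, also coding, had 74 and 203 counts in Mmp3-positive cells and 189 and 39 in Mmp3-negative cells.

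Errfi1 was spread over 3 transcripts in every library. Errfi1-201, the main coding transcript by counts, had 8142 and 7610 in Mmp3-positive cells and 5174 and 5201 in Mmp3-negative cells, and the groups did not overlap. Errfi1-203, a processed transcript of 546 bases, had 3604 and 4940 in Mmp3-positive cells and 3543 and 3574 in Mmp3-negative cells. Because Errfi1-203 is short, it held 76.7% and 81.4% of the Errfi1 TPM in Mmp3-positive cells and 82.6% and 82.4% in Mmp3-negative cells. The first rank of Errfi1 by TPM did not depend on Errfi1-203. Errfi1-201 alone had 192.8 and 155.4 TPM in Mmp3-positive cells and 72.96 and 137.7 TPM in Mmp3-negative cells. The highest sums among the other genes were 84.77 (Sgk1) and 82.4 TPM (Fkbp5) in Mmp3-positive cells. In Mmp3-negative cells they were 36.03 (Fkbp5) and 101.0 TPM (Zbtb16).

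The receptor chaperone complex, 14 genes and all tested, was the pathway list with called genes: 2 were lower and 0 higher, where 0.0141% of all genes tested were called lower. At an unadjusted p under 0.05 there were 3 lower (3.25% of all genes), and DESeq2 called 4 lower (4.18%), with 0 higher in both. Hspa1a and Hspa1b are near-identical, stress-inducible Hsp70 genes, so reads may be split between them and each value is uncertain. Hspa1a had 354.9 and 407.8 CPM in Mmp3-positive cells and 2665 and 2402 CPM in Mmp3-negative cells (log2 fold change -2.73, edgeR adjusted p = 0.0250), and Hspa1b had 459.7 and 454.8 CPM and 2655 and 2263 CPM (-2.43, edgeR adjusted p = 0.0273). Both lost the call with a transcript length offset, in limma on TPM, and without either Mmp3-positive library. Hsp90ab1, a main form of the Hsp90 that holds the receptor, had 1471 and 1379 CPM in Mmp3-positive cells and 1180 and 1324 CPM in Mmp3-negative cells (0.19, edgeR adjusted p = 0.913). The median log2 fold change of the list was 0.11, with 9 genes above 0 and 5 below.

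Of 28 other genes known to be induced by glucocorticoids, 24 were tested and 0 passed in either direction in edgeR. At an unadjusted p under 0.05 there were 2 higher and 4 lower, and DESeq2 called 2 higher and 4 lower; of all genes tested, 5.62% were higher and 3.25% lower at that limit, and 5.46% and 4.18% in DESeq2. The median log2 fold change was 0.16, with 15 above 0 and 9 below, and 4 genes were higher and 4 lower with no overlap between the groups (16.7% each, against 22.5% and 17.3% of all genes tested). Angptl4, which inhibits lipoprotein lipase, had 435.4 and 338.0 CPM in Mmp3-positive cells and 276.3 and 247.9 CPM in Mmp3-negative cells (log2 fold change 0.56, edgeR adjusted p = 0.480). Glul, which encodes glutamine synthetase, had 524.6 and 572.3 CPM and 513.4 and 433.8 CPM (0.21, edgeR adjusted p = 0.917). Agt, which encodes angiotensinogen, had 224 and 352 counts in Mmp3-positive cells and 0 and 0 in Mmp3-negative cells, at least 88.7-fold higher against 3 counts per library (edgeR adjusted p = 0.480).

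In the other direction were Per1, Dusp1, Irs2 and Tgm2, named after their values were seen. Irs2, an adaptor of the insulin receptor, had 42.58 and 44.5 CPM in Mmp3-positive cells and 158.3 and 184.5 CPM in Mmp3-negative cells (log2 fold change -1.98, edgeR adjusted p = 0.211). Dusp1, a phosphatase that switches off MAP kinases, had 100.2 and 126.5 CPM and 197.3 and 214.6 CPM (-0.86, edgeR adjusted p = 0.480). Per1, a clock gene, had 87.89 and 128.3 CPM and 191.0 and 187.5 CPM (-0.81, edgeR adjusted p = 0.480). Several of these genes also respond to other signals. Of 22 immediate early genes, which rise within minutes of many stimuli, 0 passed in edgeR. At an unadjusted p under 0.05, 10 were lower, where 3.25% of all genes tested were, and DESeq2 called 11 lower, where 4.18% were. Fitted log2 fold changes were below 0 for 18 and above 0 for 4, against 51.1% above 0 over all genes tested. Of these immediate early genes, 13 were lower with no overlap (59.1%, against 17.3% of all genes). Their summed level was 4296 and 4400 CPM in Mmp3-positive cells against 5702 and 6673 CPM in Mmp3-negative cells, and its part in the values of Per1, Dusp1 and Irs2 was not tested.

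Of 16 genes known to be repressed by glucocorticoids, 13 were tested and 0 passed in edgeR, with 7 above 0 and 6 below and a median of 0.18. There was 1 in each direction at an unadjusted p under 0.05 and 1 in each direction in DESeq2, where 5.62% and 3.25% of all genes tested were higher and lower at that limit and 5.46% and 4.18% in DESeq2. Ccl7, a chemokine that attracts monocytes, had 198.4 and 162.2 CPM in Mmp3-positive cells and 82.32 and 91.45 CPM in Mmp3-negative cells (log2 fold change 1.05, edgeR adjusted p = 0.480). Ccl2, a related chemokine, had 651.7 and 375.5 CPM and 476.3 and 244.8 CPM, with overlap (0.51, edgeR adjusted p = 0.916). Tnf, a cytokine made chiefly by macrophages, had 0 and 0 counts in Mmp3-positive cells and 299 and 104 in Mmp3-negative cells. That is at least 71.2-fold lower against 3 counts per library (edgeR adjusted p = 0.480). Macrophage and leukocyte markers were also lower in sum, as given above, and their part in the Tnf value was not tested.

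The list of the mineralocorticoid receptor and Sgk1 pathway, with activators and targets of Sgk1, held 14 genes, of which 12 were tested and 0 passed in edgeR, in DESeq2, or at an unadjusted p under 0.05. In edgeR 6 were above 0 and 6 below, with a median of 0.03. Nedd4l, the ubiquitin ligase that Sgk1 restrains, had 228.4 and 132.5 CPM in Mmp3-positive cells and 149.1 and 82.92 CPM in Mmp3-negative cells (log2 fold change 0.64, edgeR adjusted p = 0.819).

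Of 11 targets and ligands of the Errfi1 pathway, 8 were tested and 0 passed in edgeR, with 5 above 0 and 3 below and a median of 0.33. There was 1 in each direction at an unadjusted p under 0.05, and DESeq2 called 2 higher and 1 lower, beside the same shares of all genes as for the repressed list (5.62% and 3.25%, and 5.46% and 4.18%). Egfr, the receptor that Errfi1 inhibits, had 574.3 and 526.9 CPM in Mmp3-positive cells and 411.0 and 442.4 CPM in Mmp3-negative cells. Its groups did not overlap, and 22.5% of all genes tested were higher in this way (log2 fold change of Egfr 0.37, edgeR adjusted p = 0.569). Erbb3, a related receptor, had 0 and 0 counts in Mmp3-positive cells and 98 and 232 in Mmp3-negative cells, at least 60.1-fold lower (edgeR adjusted p = 0.480).

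**Figure D5:**
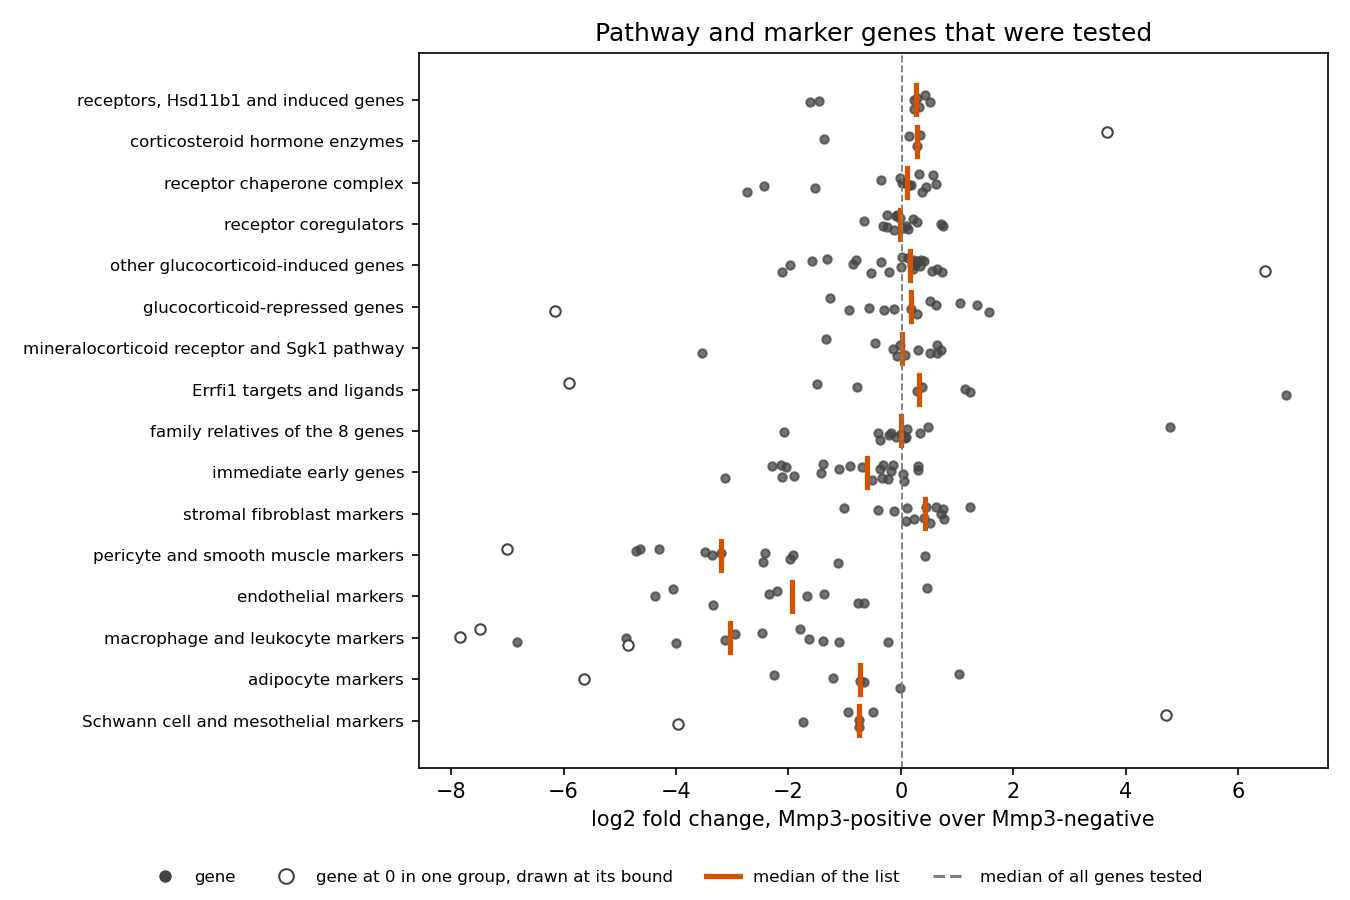
Log2 fold change of Mmp3-positive over Mmp3-negative cells (x axis) for each tested gene of the 8 genes and of the pathway and marker lists (rows), with the median of each list; open circles are genes at 0 in a group, drawn at their bound. The medians of the pathway lists lie between -0.01 and 0.33, while those of pericyte and smooth muscle (-3.20), macrophage and leukocyte (-3.04) and endothelial markers (-1.94) lie well below 0.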

How the data were processed

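RNA was measured by strand-specific sequencing after ribosomal RNA depletion, from total RNA prepared with a kit meant for fixed, embedded tissue (RNeasy FFPE), per the labels' protocols. Per the submitters' processing notes the authors used kallisto 0.45.0 and GRCm38; no transcript set, strand setting or trimming step is given in the sources used here. Each deposited table listed 115270 transcripts with effective length, estimated count and TPM, per the file headers. kallisto splits reads among similar transcripts, so transcript values carry an assignment error that n = 2 does not measure.

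Transcripts were matched by identifier without version to GENCODE M21 (113580 matched, in 35580 genes; 1690 unmatched and left out), and the deposited estimated counts and TPM were summed per gene. Sums were rounded to whole numbers, filtered (filterByExpr, minimum count 10), scaled by TMM and tested with edgeR 4.0.16 (R 4.3.3; quasi-likelihood, two-sided, no covariate, Benjamini-Hochberg, threshold 0.05), after tests on simulated data. Standard errors were taken as the absolute log2 fold change divided by √F, and intervals are 95%. CPM use the TMM-scaled library sizes. A gene at 0 in both libraries of a group was given a bound at 3 counts per library. Transcript counts were described without a test.

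The 8 genes and the gene lists were chosen with earlier results of these data known. Beside the 8 genes and Mmp3, each list's genes past the threshold, the 4 most abundant tested and the 2 with the largest change were taken by rule, and not all of them are printed; 2 are not reported here. Per1, Dusp1, Irs2, Tgm2 and Klf9 were chosen after their values were seen. Alternatives were DESeq2 1.42.0 size factors and Wald test, no count filter, the set number as a replicate block, a transcript length offset, each library left out, and limma 3.58.1 on log2(TPM + 1) or log2(TPM + 0.1), unfiltered or with TPM of at least 1 in 2 libraries. limma without the pseudogene group, and TPM rescaled without it, were added after seeing the data. Sums and plots used Python 3.11.15, pandas 2.3.3 and matplotlib 3.10.9.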

Additional observations from a re-analysis of the deposited data

Results flagged for a closer look

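Transcripts that matched no GENCODE M21 gene, which entered no comparison, took 0.809% of all estimated counts in Mmp3-positive replicate 1, 0.995% in Mmp3-positive replicate 2, 2.08% in Mmp3-negative replicate 1 and 0.729% in Mmp3-negative replicate 2. The value of Mmp3-negative replicate 1 was above that of each other library.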

How the results depend on the processing

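With 2 libraries a group, precision was limited by their spread at depths of 17693755 to 20286221 estimated counts: the median absolute log2 difference between libraries was 0.501 in the Mmp3-positive and 0.795 in the Mmp3-negative pair. Fits without a library give the lone sample left in its group the variance of the other pair, and the filter keeps other genes in them.

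For Zbtb16 the log2 fold change stayed below 0 in every setting, from -1.67 to -1.0, and from -1.96 to -1.19 with a library left out. Errfi1 stayed above 0, from 0.222 to 0.472 and from 0.246 to 0.395 with a library left out. Nr3c2 also stayed above 0, from 0.0598 to 1.18 with a library left out. With a library left out, Nr3c1 ran from -0.0658 to 0.738, Hsd11b1 from -0.0197 to 1.07, Fkbp5 from -0.203 to 0.864, Sgk1 from -0.594 to 2.29 and Tsc22d3 from -2.48 to 0.279, and the cause was not tested. In the other settings each of these kept its sign. With a library left out, Hspa8 ran from -0.00341 to 0.292, Cebpd from -0.0201 to 0.441 (also -0.0126) and Klf9 from -0.083 to 0.445.

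Genes called higher and lower numbered 1 and 2 in the edgeR fit, 4 and 23 without the count filter, 775 and 593 in DESeq2, 1 and 0 with the length offset, and 0 and 0 in the 4 limma fits, where 1029 to 1334 genes had an unadjusted p under 0.05. They ran from 1 to 237 and from 1 to 116 with a library left out. Members of the 8 called numbered 1 lower in DESeq2 (Zbtb16, -1.67), and 0 to 1 in each direction with a library left out. Of the 123 pathway genes, 104 were tested in the edgeR fit. DESeq2 called 6 of the pathway genes higher and 11 lower, where 5.46% of all genes tested were called higher and 4.18% lower. The length offset and limma called 0 lower. In the 100 marker and immediate early genes, 11 were lower without the filter, DESeq2 called 4 higher and 30 lower, and the fits with a library left out called 0 to 3 higher and 0 to 18 lower.

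Set numbers were shared by the groups, and the deviations of same-numbered libraries from their group means had a correlation of 0.0261. With 2 libraries a group the second pair mirrors the first, so this value cannot show whether the sets were paired. With the replicate block, 1 gene was higher and 4 lower, including 1 marker or immediate early gene. The block called none of the 8 genes. The median log2 fold change of all genes was 0.306 in limma on log2(TPM + 1), 0.371 on log2(TPM + 0.1), 0.238 unfiltered and 0.119 with the block, against 0.019 in the edgeR fit.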

Other observations

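Among 16 coregulators of nuclear receptors, 15 were tested, with 7 above 0, 8 below 0 and a median log2 fold change of -0.01, and 0 passed in edgeR; at an unadjusted p under 0.05 there was 1 lower, where 3.25% of all genes tested were, and DESeq2 called 1 lower, where 4.18% were. Among 14 relatives of the 8 genes, 13 were tested and 0 passed in edgeR, in DESeq2 or at an unadjusted p under 0.05. Zbtb20, a zinc finger repressor of the same family as Zbtb16, had 300.7 and 342.2 CPM in Mmp3-positive cells and 450.2 and 379.0 CPM in Mmp3-negative cells (-0.37, edgeR adjusted p = 0.658). Klf9, a glucocorticoid-induced transcription factor, had 222.6 and 153.9 CPM in Mmp3-positive cells and 139.7 and 186.2 CPM in Mmp3-negative cells (0.21, edgeR adjusted p = 0.998).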
